A study of Mus musculus with 58 samples.

Results

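The genes described here are 8 markers of neural progenitors and neurons, Sox1, Pax6, Nes, Neurog1, Neurog2, Tubb3, Dcx and Map2, chosen by name from the 20177 genes with counted 3′ ends. They were followed in mouse embryonic stem (mES) cells exposed to retinoic acid (RA), with and without degradation of DPY30, and in mES cells that received a degron ligand without RA. Nes and Map2 rose during the RA course and Tubb3 and Sox1 fell, while Pax6, Dcx, Neurog1 and Neurog2 gave few reads in any library of the RA course. With auxin, which degrades DPY30, 3 of 20 member comparisons at a matched time gave a call. These were lower Sox1 on day 4 and higher Tubb3 and Map2 on day 6. Each of these calls was lost when auxin replicate 2 of its day was left out.

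Sox1 and Pax6 are transcription factors of neural progenitors, and Nes encodes nestin, an intermediate filament protein of dividing progenitors. Neurog1 and Neurog2 are proneural transcription factors that commit progenitors to neurons, and they act upstream of neuronal genes. Tubb3 encodes a neuron-enriched β-tubulin, Dcx (doublecortin) a microtubule-binding protein of migrating young neurons, and Map2 a microtubule-associated protein of dendrites. RA, a ligand of nuclear receptors, promotes exit from pluripotency and can direct mES cells towards neural or endodermal fates depending on the culture. DPY30 and RBBP5 are shared core subunits of the SET1/COMPASS complexes, which methylate histone H3 at lysine 4, and KDM5A and KDM5B are demethylases that remove this mark.

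All libraries came from E14 cells (129/Ola background) and were 3′-end libraries (QuantSeq). The Quant-seq course used a clone with both DPY30 alleles tagged with the mAID degron and with OsTIR1, which lets auxin trigger degradation of the tagged protein. Cells were held without LIF in 1 μM RA for 8 h or for 1, 2, 4 or 6 days with DMSO or auxin, and a DMSO group at 0 h served as the start for both arms, as no auxin group existed at 0 h. The SLAM-seq libraries came from DPY30mAID cells, from DPY30mAID_Kdm5dKO cells, which also lack Kdm5a and Kdm5b and came from 2 clones not told apart in the labels, and from a clone of RBBP5FKBP cells, in which dTAG-13 degrades RBBP5. These cells grew with LIF and no RA, received the ligand for 0 to 48 h, and were labelled with 100 μM 4-thiouridine (4SU) for 60 min. Groups held 2 libraries in Quant-seq and DPY30mAID_Kdm5dKO cells and 3 in the other lines. The study's legends call the SLAM-seq replicates biological, and for the Quant-seq replicates the labels give only a number, so p-values there measure the spread between these libraries, which may be technical.

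Of 58 libraries, 57 were used, because the counts of both day 6 DMSO libraries were identical, and these entered as 1 library. Every value of that group therefore rests on a lone library, which the fit assumed to vary like the other groups. Total reads per library were 1264241 to 2543632 in Quant-seq, 2013350 to 2806821 in DPY30mAID, 1721185 to 2852331 in RBBP5FKBP and 5931269 to 7792404 in DPY30mAID_Kdm5dKO cells. A count of 3 reads corresponded to 1.18 to 2.37 CPM (reads per 1000000 of the library total) in Quant-seq, and no molecular identifiers were used, so counting intervals and floors cover counting error only. As a check of the labels, Kdm5b at 0 h was 109 to 151 CPM in DPY30mAID_Kdm5dKO cells and 906 to 946 CPM in DPY30mAID cells, and Kdm5a was 26.0 to 27.5 and 74.5 to 106 CPM. The degrons act on protein, so the RNA of Dpy30 and Rbbp5 is no check of them. The 10 mES cell markers on the list summed to 5801 to 6083 CPM at 0 h, against 283 to 316 CPM for 32 neural progenitor genes other than the members.

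In GRCm38 (GENCODE vM21), Sox1 lies on chromosome 8 from 12395295 to 12400126 and Nes on chromosome 3 from 87971078 to 87980451, both on the plus strand. Tubb3 spans 123411424 to 123422015 of chromosome 8, and Map2 spans 66175273 to 66442583 of chromosome 1, also on the plus strand. Pax6 lies at 105668900 to 105697364 of chromosome 2, and Neurog2 at 127633135 to 127635631 of chromosome 3, on the plus strand. Neurog1 occupies 56250478 to 56252163 of chromosome 13, and Dcx occupies 143855842 to 143933311 of the X chromosome, both on the minus strand. All counted intervals of the members fell in annotated UTR sequence, for example 12397537 to 12400126 for Sox1 and 66439008 to 66442583 for Map2. In other transcripts 3.97% of this Map2 interval, 15.6% of the Pax6 interval and all of a minor Tubb3 interval (123420704 to 123421094) are also coding. Nearly all Tubb3 reads came from 123421683 to 123422015, and 48.5% of them in Quant-seq were reads that mapped to more than 1 place, so Tubb3 counts may hold reads of other tubulin genes.

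The members also differed in the sequence before their starts, which the choice of genes did not use. The promoters are shown because SET1/COMPASS binds and methylates chromatin at CpG-rich starts. Nes, Tubb3 and Map2 are, with Sox1, members called in the RA course below. Dcx has the fewest CpG of the 8 and had too few reads to be tested in that course. Whether CpG number goes with the response to RA was not tested. The Sox1 window is nearly all transcribed sequence and is not printed. The bases before the first annotated transcript start are given 5′ to 3′ on the strand of the gene (RefSeq, GRCm38.p6), with each CpG in capitals.
Nes (chr3:87970843-87971077, plus strand): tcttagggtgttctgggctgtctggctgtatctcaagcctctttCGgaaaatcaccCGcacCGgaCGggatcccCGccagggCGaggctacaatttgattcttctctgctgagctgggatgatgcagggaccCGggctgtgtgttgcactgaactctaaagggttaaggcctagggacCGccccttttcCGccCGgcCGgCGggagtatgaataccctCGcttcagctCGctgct
Tubb3 (chr8:123411303-123411423, plus strand): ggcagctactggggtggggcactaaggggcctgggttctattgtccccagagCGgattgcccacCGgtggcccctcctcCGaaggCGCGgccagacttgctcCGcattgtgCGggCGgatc
Map2 (chr1:66175079-66175272, plus strand): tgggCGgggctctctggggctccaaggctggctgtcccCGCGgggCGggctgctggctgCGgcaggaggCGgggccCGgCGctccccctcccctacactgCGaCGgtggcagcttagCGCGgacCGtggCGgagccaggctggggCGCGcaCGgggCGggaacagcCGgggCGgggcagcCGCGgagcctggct
Dcx (chrX:143933312-143933469, minus strand): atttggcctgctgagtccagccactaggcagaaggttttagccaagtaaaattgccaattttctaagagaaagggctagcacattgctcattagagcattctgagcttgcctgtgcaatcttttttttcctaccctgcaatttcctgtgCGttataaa
These stretches hold 14, 8, 22 and 1 CpG in 235, 121, 194 and 158 bases. In full windows of 250 bases before the RefSeq start, Map2 had 34 CpG, Sox1 and Neurog1 29, Tubb3 21, Nes and both Pax6 windows 15, Neurog2 8 and both Dcx windows 3, against a median of 6 over 32851 promoters of 27025 genes. Fewer CpG than in Map2 were found in 96.5% of these promoters and fewer than in Dcx in 29.0%. TATAAA, read on both strands, occurred only in the Dcx windows (12.4% of all promoters) and AGGTCA, a nuclear receptor half-site, only in that of Neurog1 (14.0%). The E-box motifs CAGCTG and CAGATG, held by 13.0% and 14.4% of all promoters, were in none of the 10 windows. A match or its absence says only which letters are in the window.

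Nes, a progenitor gene, rose with RA in DMSO cells. It measured 0.896 and 1.57 CPM at 0 h, 2.09 and 2.94 at 8 h, 1.63 and 1.10 on day 1, 6.70 and 4.20 on day 2, 4.96 and 4.66 on day 4, and 15.4 on day 6. The libraries of 8 h and of days 2, 4 and 6 were all above those of 0 h. Against 0 h the log2 fold change was 1.97 ± 0.63 (SE) on day 2 (edgeR adjusted p = 0.01203), 1.74 ± 0.64 on day 4 (0.02417) and 3.35 ± 0.59 on day 6 (2.675e-05), a 10.2-fold rise. The values at 8 h (1.06) and day 1 (0.07) were not called. The day 2 call was lost without DMSO 0 h replicate 1 (1.68, adjusted p = 0.0789) or day 2 replicate 1 (1.63, 0.103). The day 4 call was lost with DESeq2 (0.0789) and without any 1 of its 4 libraries (adjusted p 0.0549 to 0.135).

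Sox1, the other progenitor gene with enough reads to test, went the opposite way. Its DMSO libraries measured 22.8 and 15.7 CPM at 0 h, 21.4 and 14.3 at 8 h, 11.4 and 13.2 on day 1, 18.0 and 15.9 on day 2, 15.8 and 16.8 on day 4, and 3.08 on day 6. The day 6 library was below every other DMSO library, and the values of 8 h, day 2 and day 4 overlapped those of 0 h. The log2 fold change against 0 h was −0.05, −0.68, −0.26 and −0.39 up to day 4, with no call, and −2.81 ± 0.50 on day 6 (edgeR adjusted p = 3.339e-05). In bulk RNA, fewer cells of a type and less RNA per cell cannot be told apart, here and below.

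Tubb3, a neuronal tubulin gene, was already well counted at 0 h and fell with RA. In DMSO cells it measured 90.5 and 85.3 CPM at 0 h, 42.3 and 25.6 at 8 h, 49.9 and 41.9 on day 1, 80.3 and 71.8 on day 2, 42.8 and 37.8 on day 4, and 8.37 on day 6. Every later library was below both 0 h libraries, and day 2 came closest to them. Tubb3 fell by 1.33 on the log2 scale at 8 h (SE 0.21, edgeR adjusted p = 6.118e-05), by 1.28 on day 4 (SE 0.21, 1.019e-05) and by 3.58 on day 6 (SE 0.35, 2.147e-09). On day 1 the log2 fold change of −0.98 ± 0.21 (0.0003157) stayed just inside the required fold, and on day 2 it was −0.29.

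Map2, the dendritic microtubule gene, rose with RA and was highest on day 4. The DMSO libraries held 3.58 and 6.29 CPM at 0 h, 3.66 and 0.839 at 8 h, 9.77 and 6.61 on day 1, 14.4 and 13.5 on day 2, 21.2 and 31.2 on day 4, and 6.61 on day 6. The libraries of days 2 and 4 were above all others of the arm, and the day 6 library was back near the 0 h level. Map2 rose by 2.22 ± 0.38 on the log2 scale on day 4 (edgeR adjusted p = 2.116e-05), 4.65-fold, while day 6 gave 0.19 ± 0.58 (0.7942). The step from day 2 to day 4 alone was not called (0.83 ± 0.33, 0.05168). The day 2 rise of 1.39 ± 0.42 (0.008374) was lost without DMSO 0 h replicate 1 (1.08, 0.0846).

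**Figure D1:**
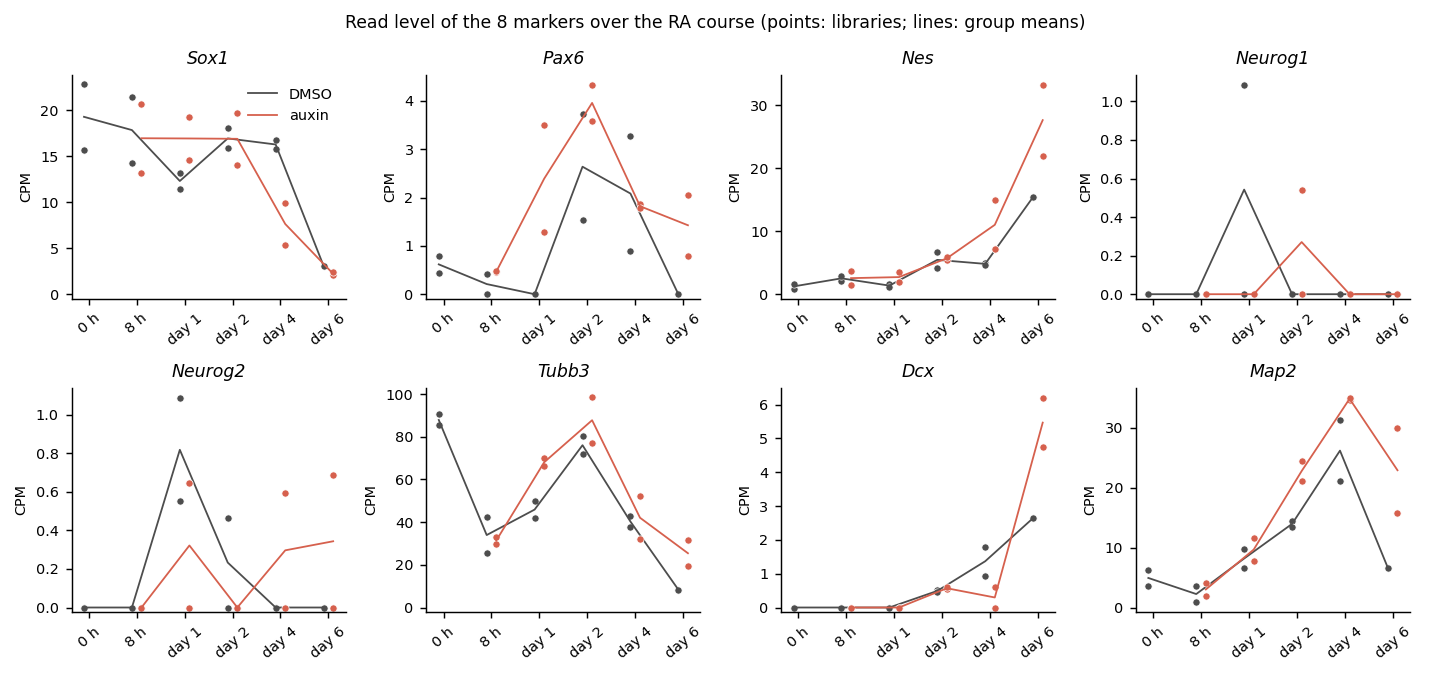
Level (CPM, vertical axis, one scale per panel) of the 8 members at 0 h, 8 h and days 1, 2, 4 and 6 of RA (horizontal axis, evenly spaced, not to scale). Points are libraries and lines join group means, in grey for DMSO and red for auxin. Nes and Map2 lie above their 0 h level on day 4, Tubb3 and Sox1 are lowest on day 6, and Neurog1, Neurog2, Dcx and Pax6 stay close to 0.

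In all, 9 of the 20 tests of the 4 members against 0 h in DMSO cells gave a call, 5 higher and 4 lower. A call required a Benjamini-Hochberg adjusted p below 0.05 over all genes tested and a log2 fold change beyond 1 in either direction. Among all 11415 genes tested, the share called was 6.42% for 8 h, 29.4% for day 1, 26.4% for day 2, 30.5% for day 4 and 37% for day 6. The 4 members tested are too few to set their count apart from this background.

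The other 4 members did not reach a mean of 10 reads in any Quant-seq group and were not tested. Pax6 had 58 reads in 21 libraries, with 1 and 2 reads at 0 h in DMSO cells, 0 and 1 at 8 h, none on day 1, 3 and 8 on day 2, 2 and 7 on day 4 and 0 on day 6. In auxin cells it had 1 and 1 reads at 8 h, 6 and 2 on day 1, 8 and 6 on day 2, 3 and 3 on day 4, and 3 and 1 on day 6. Relative to library totals, the day 2 level was 4.29 times that of 0 h in DMSO cells (95% counting interval 1.13 to 23.9) and 6.33 times in auxin cells (1.77 to 34.3). Both intervals lie above 1 but are wide, as only 3 reads stand at 0 h. On day 4 the ratios were 3.28 in DMSO cells (0.819 to 18.9) and 2.90 in auxin cells (0.619 to 17.9), and on day 6 it was 2.34 in auxin cells (0.396 to 16.0), with intervals that include 1. With no filter on low counts, Pax6 passed the call on day 2 in auxin cells against 0 h (edgeR adjusted p = 0.04676) and on day 2 against day 1, where it had no reads, in DMSO cells (0.02576).

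Dcx, the marker of migrating young neurons, had 32 reads in all, and 11 of 21 libraries had none. No reads were counted up to day 1 in either arm. DMSO cells gave 1 and 1 on day 2, 4 and 2 on day 4 and 6 on day 6, and auxin cells gave 1 and 1 on day 2, 0 and 1 on day 4, and 9 and 6 on day 6. Taking 3 reads over the 0 h group as the floor, Dcx was at least 4.21-fold higher in DMSO cells and at least 8.78-fold higher in auxin cells on day 6. With no filter on low counts, Dcx passed the call on day 6 in DMSO (adjusted p = 0.02664) and auxin cells (0.00117), and on day 6 against day 4 in auxin cells (0.0422).

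The proneural genes were hardly detected. Neurog1 had 3 reads in all, 2 in DMSO day 1 replicate 1 and 1 in auxin day 2 replicate 1, and 19 of 21 libraries had none. Neurog2 had 7 reads, and 15 libraries had none. Its reads were 2 and 1 on day 1 and 1 in replicate 2 of day 2 in DMSO cells, and 1 read each in auxin day 1 replicate 2, day 4 replicate 2 and day 6 replicate 1. A change of either gene was not detectable at this depth.

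With auxin, the same 4 members were compared with the same DMSO 0 h libraries, so both arms share their start and their values are given side by side. Nes measured 3.69 and 1.41 CPM at 8 h, 3.49 and 1.93 on day 1, 5.41 and 5.98 on day 2, 14.9 and 7.12 on day 4, and 22.0 and 33.2 on day 6. All auxin libraries from day 1 on were above the higher 0 h library of 1.57 CPM. The log2 fold change of Nes was 1.97 on day 2 (edgeR adjusted p = 0.01371), 2.74 on day 4 (0.0002249) and 4.05 ± 0.50 on day 6 (1.299e-07), a 16.5-fold rise. The day 2 call was lost with DESeq2 (0.0502), without auxin day 2 replicate 2 (0.0577) or without DMSO 0 h replicate 1 (0.0880).

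Sox1 in auxin cells measured 20.7 and 13.2 CPM at 8 h, 14.6 and 19.3 on day 1, 14.1 and 19.7 on day 2, 9.93 and 5.34 on day 4, and 2.06 and 2.37 on day 6. Days 4 and 6 were below both 0 h libraries, and the earlier times overlapped them. Sox1 fell by 1.66 on the log2 scale on day 4 (edgeR adjusted p = 0.0002435) and by 3.42 on day 6 (9.064e-07).

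Tubb3 in auxin cells went down, up and down again, at 33.2 and 29.7 CPM at 8 h, 69.9 and 66.3 on day 1, 98.5 and 77.1 on day 2, 52.1 and 32.0 on day 4, and 19.2 and 31.6 on day 6. It fell against 0 h at 8 h by 1.50 on the log2 scale (edgeR adjusted p = 1.204e-05), on day 4 by 1.40 (4.339e-06) and on day 6 by 2.14 (2.947e-08).

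Map2 in auxin cells held 4.15 and 1.88 CPM at 8 h, 11.6 and 7.72 on day 1, 21.1 and 24.5 on day 2, 34.7 and 35.0 on day 4, and 15.8 and 30.1 on day 6. It rose by 2.01 on day 2 (edgeR adjusted p = 0.0001694), 2.45 on day 4 (4.361e-06) and 1.82 on day 6 (0.0005135) on the log2 scale. Of 20 member tests in this arm, 11 gave a call, 6 higher and 5 lower, where 7.21%, 25.6%, 26.5%, 34.2% and 36.4% of all genes tested were called at 8 h and on days 1, 2, 4 and 6.

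Auxin, which degrades DPY30 in these cells, was compared with DMSO at each time. No cells without the degron received auxin, so an effect of auxin itself and of DPY30 loss cannot be told apart. At 8 h and on days 1 and 2 no member was called, with log2 fold changes from −0.17 for Tubb3 at 8 h to 1.03 for Nes on day 1, and Tubb3 on day 1 (0.62 ± 0.22, edgeR adjusted p = 0.09392) alone had an unadjusted p below 0.05. Over all genes tested, 0.158%, 2.39% and 4.81% were called at these times, then 7.25% on day 4 and 10.1% on day 6. Of 20 member tests 3 gave a call, 2 higher and 1 lower.

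On day 4 Sox1 was lower with auxin, at 7.63 ± 3.25 CPM (SD, n = 2) against 16.3 ± 0.719 with DMSO (SD, n = 2), and the groups did not overlap. The log2 fold change was −1.27 ± 0.36 (edgeR adjusted p = 0.01474). It was −0.89 (0.198) without auxin day 4 replicate 2, −1.32 (0.0538) without DMSO day 4 replicate 1 and −1.22 (0.0775) without DMSO day 4 replicate 2, and DESeq2 gave −1.28 (0.0854). Nes stood higher on day 4, with a log2 fold change of 1.00 ± 0.45 that was not called (0.1275), and Tubb3 and Map2 gave −0.12 and 0.24.

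On day 6 Tubb3 and Map2 were higher with auxin, each against the lone DMSO library. Tubb3 measured 25.4 ± 8.77 CPM (SD, n = 2) against 8.37, a log2 fold change of 1.44 ± 0.43 (edgeR adjusted p = 0.01932). Map2 measured 22.9 ± 10.1 CPM (SD, n = 2) against 6.61, a log2 fold change of 1.63 ± 0.49 (0.02143). Without auxin day 6 replicate 2 both calls were lost, at 1.01 (0.155) for Tubb3 and 1.06 (0.181) for Map2. In a fit of these groups alone, adjusted p was 0.268 for Tubb3 and 0.238 for Map2, and with reads that mapped to more than 1 place subtracted Tubb3 gave 1.26 (0.145). Map2 was not called by DESeq2 (0.0827). Nes (0.69 ± 0.40, 0.2493) and Sox1 (−0.61) were not called on day 6.

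**Figure D2:**
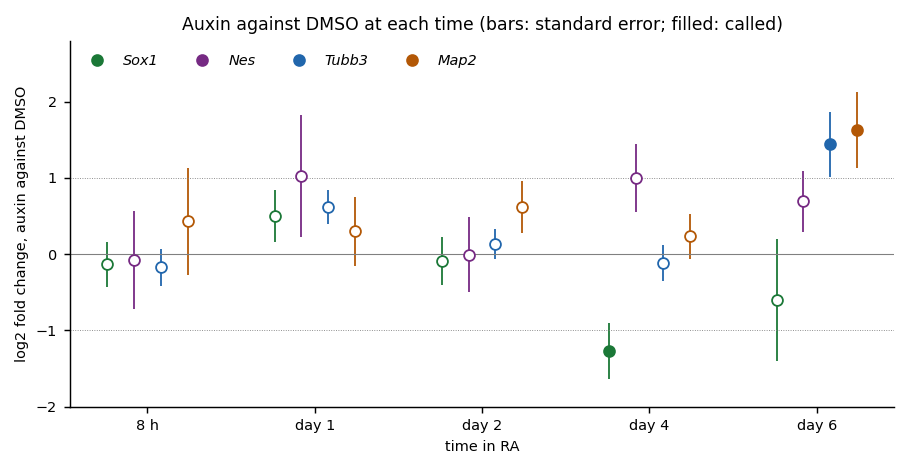
Log2 fold change of auxin against DMSO (vertical axis) at 8 h and days 1, 2, 4 and 6 of RA (horizontal axis, evenly spaced) for Sox1, Nes, Tubb3 and Map2. Points are edgeR estimates with bars of 1 SE, filled points passed the call, and dotted lines mark the required fold of 1 on the log2 scale. Filled points are Sox1 on day 4 at −1.27 and Tubb3 and Map2 on day 6 at 1.44 and 1.63.

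Whether the auxin effect differed between day 4 and 8 h was tested directly. The difference was −1.13 ± 0.47 for Sox1 (unadjusted p = 0.02398, edgeR adjusted p = 0.1721), 1.08 for Nes, 0.05 for Tubb3 and −0.19 for Map2. No member was called by edgeR or DESeq2, where 3.55% of all genes were called by edgeR.

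The steps between neighbouring times placed the changes within each arm. In DMSO cells Map2 rose from 8 h to day 1 (log2 fold change 1.82, edgeR adjusted p = 0.01653) and Nes from day 1 to day 2 (1.90, 0.04468). From day 4 to day 6 Sox1 fell by 2.42 (0.001385), Tubb3 by 2.31 (7.336e-05) and Map2 by 2.02 (0.002681) on the log2 scale, while Nes rose by 1.62 (0.01688). These were 6 of 16 tests, against 16.7%, 7.15%, 12.5% and 8.67% of all genes called in the steps ending on days 1, 2, 4 and 6. The last step rests on the lone day 6 library. The Map2 step to day 1 was lost without 8 h replicate 2 or day 1 replicate 1, the Nes step to day 2 with DESeq2 and without any 1 of its libraries, and the Nes step to day 6 with DESeq2 and without either day 4 library.

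In auxin cells, Tubb3 (1.13, edgeR adjusted p = 0.0004912) and Map2 (1.69, 0.01707) rose from 8 h to day 1, and Map2 again to day 2 (1.05, 0.04758). From day 2 to day 4 Sox1 fell by 1.31 (0.01019) and Tubb3 by 1.24 (0.0001421), and from day 4 to day 6 Nes rose by 1.31 (0.01968). The same Tubb3 step in DMSO cells, from day 2 to day 4, was −0.98 (0.0008214), just inside the required fold, and was called with DESeq2 (0.002021) and in 6 other alternatives. These were also 6 of 16 tests, where 12.6%, 8.81%, 8.85% and 3.94% of all genes were called. Of these, all but the Tubb3 rise to day 1 were lost when some 1 library was left out: for Map2 8 h replicate 2 or day 1 replicate 1 in the first step and several libraries in the second, for Sox1 day 2 replicate 2 or day 4 replicate 2, for Tubb3 day 4 replicate 2 (−0.93), and for Nes day 4 replicate 2 or day 6 replicate 2. The Map2 step to day 2 was also lost with DESeq2 (adjusted p = 0.16), RLE factors (0.0566), the row with most reads (0.0508), multiply mapped reads subtracted (0.0616) and the replicate block (0.0507). The Nes step to day 6 was lost with DESeq2 (0.2086) and with only the groups compared (0.2344).

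Other genes of neural development were taken from lists and give the setting of the members. In DMSO cells on day 4 against 0 h, 19.9% of all genes tested were higher and 10.5% lower, with a median log2 fold change of 0.06. Of 32 other neural progenitor genes 20 were tested, 13 rose and 1 fell, and their median was 3.40. Sox9, a progenitor and glial fate factor, went from 1.65 to 144 CPM (log2 fold change 6.22 ± 0.28), and Six3, a forebrain factor, rose by 3.82 ± 0.57. Msx1, a dorsal midline factor, had no reads at 0 h and 23.4 CPM on day 4. The summed level of the list went from 283 to 316 CPM at 0 h to 1680 to 1819 CPM on day 4.

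Of 32 proneural and neuronal commitment factors, 11 were tested, 6 rose and none fell (median 2.17). Of 31 neuronal cytoskeleton and synapse genes, 21 were tested, 5 rose and 8 fell (median −0.56). Syt1, a synaptic vesicle calcium sensor, rose by 3.79 ± 0.48, and Stmn3, a tubulin-binding stathmin, went from 44.1 to 2.31 CPM and fell by 4.38 on the log2 scale. Rbfox3, a marker of mature neurons, was at 0 reads in both DMSO libraries of day 4. Of 12 tested Notch pathway genes 3 rose and 3 fell (median −0.20), and of 7 genes of REST, the repressor of neuronal genes, and its co-repressors only Rcor2 changed, falling by 2.26 (list median −0.28).

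Markers of other cell types moved at the same time. All 12 markers of primitive and definitive endoderm rose (median 6.26), and their summed level went from 56.2 to 56.4 CPM at 0 h to 3738 to 3832 CPM on day 4 and 8345 CPM on day 6. All 10 RA target genes rose (median 6.77; summed level 26.0 to 32.2 CPM at 0 h and 1334 to 1383 CPM on day 4), and 7 of 10 mES cell markers fell (median −1.41, or −1.37 with Dppa3, at 0 reads on day 4, set at its bound). Of the mesoderm, neural crest and glial markers tested, 4 of 5, 4 of 6 and 2 of 4 rose, with medians of 3.30, 3.51 and 1.81. Their summed levels on day 4 were 49.1 to 54.6, 56.9 to 75.2 and 121 to 137 CPM, against 10.6 to 10.8, 182 to 193 and 42.6 to 43.2 CPM at 0 h. The neural crest sum thus fell. Foxd3 and Ngfr of that list went the other way, from a mean log2 CPM of 7.38 to 3.52 and of 5.09 to 2.68. The part of the other cell types in the levels of the members was not tested.

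In auxin against DMSO on day 4, 4.66% of all genes were higher and 2.59% lower (median 0.00). Higher genes made up 64.3% of these calls, and 78.7% when libraries were scaled to their totals without TMM, which moved the median of all genes to 0.18. Of the progenitor list 1 was higher and 3 were lower (median −0.38), of the proneural factors 2 were lower (median −0.0450), and of the cytoskeleton and synapse genes 1 was higher and 1 lower (median 0.42). Ina, a neuronal intermediate filament gene, was the lower one at 10.4 against 36.4 CPM (log2 fold change −1.99 ± 0.26, edgeR adjusted p = 3.312e-06). The higher one was Elavl4, which binds neuronal RNA (1.45 ± 0.37, 0.006822). Of the Notch pathway genes, Nrarp and Notch1 were higher (list median 0.62). The calls of Elavl4, Nrarp, Notch1, the progenitor genes En2, Six3 and Otx2 and the proneural factors Eomes and Isl1 were lost with DESeq2 and without some single libraries.

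The endoderm markers were lower with auxin. Of 12, 10 were lower with auxin on day 4 (median −1.59), with a summed level of 1355 to 1413 CPM against 3738 to 3832 CPM with DMSO. Dab2, an endocytic adaptor, fell by 2.07 on the log2 scale (edgeR adjusted p = 2.389e-13), and Cubn, an endocytic receptor, fell by 3.24 (6.773e-11). On day 6, when 4.77% of all genes were higher and 5.3% lower (47.4% of calls higher, and 62.7% without TMM), all 12 were lower (median −2.33; 1514 to 1695 CPM against 8345 CPM). RA target genes gave 2 higher and 0 lower on day 4, with Hoxb1 at 1.51 ± 0.11. For mES cell markers 2 of 10, Klf2 and Dppa3, were higher on day 4 while the median was below 0 (−0.25; 2365 to 2452 against 2649 to 2680 CPM) and 5 of 10 on day 6 (median 0.69). On day 6, 5 cytoskeleton and synapse genes were higher and 5 lower (median 0.53), and 1 progenitor gene was higher and none lower (median 0.31). The higher Tubb3 and Map2 of day 6 stood beside lower endoderm markers in the same libraries, whose part in it was not tested.

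**Figure D3:**
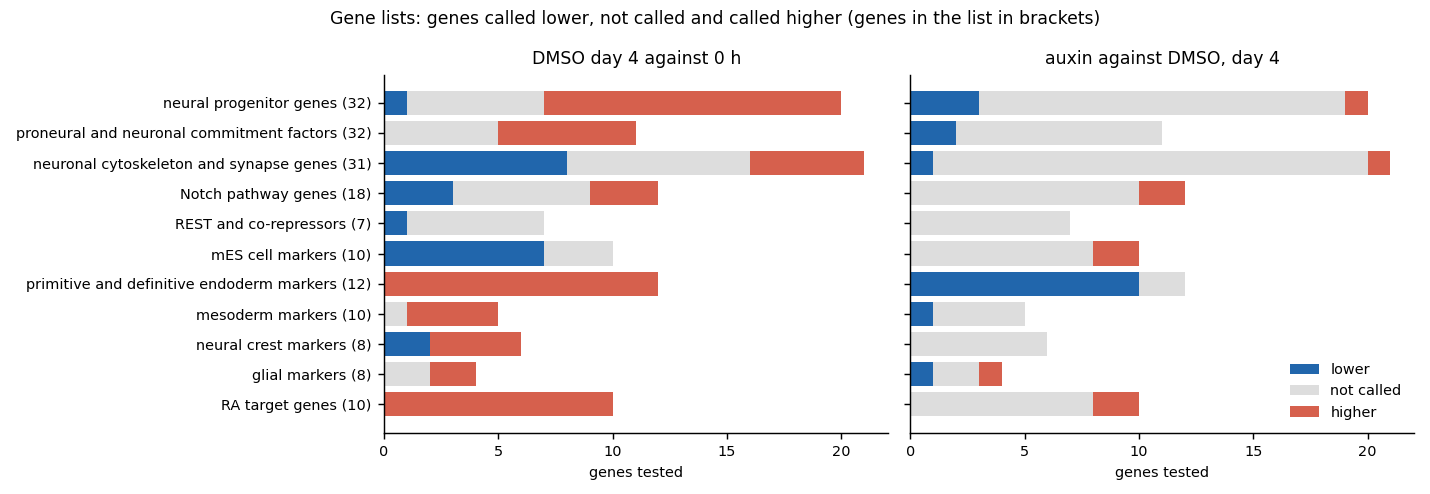
Number of tested genes (horizontal axis) called lower, not called and called higher in each of 11 lists (list size in brackets), for DMSO day 4 against 0 h and for auxin against DMSO on day 4. All 12 endoderm markers rose with RA and 10 were lower with auxin, and of 20 tested neural progenitor genes 13 rose with RA and 4 were called with auxin.

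As a description, the genes most like each member were named by Pearson's r of log2 CPM over the 11 Quant-seq group means, which share libraries and time. The closest were Mpi (0.98), Rpl39 (0.97) and Rps6 (0.97) for Sox1, Rdh10 (0.97), Krt7 (0.96) and Mafk (0.96) for Nes, Morc1, Tdp1 and Pla2g12a (each 0.92) for Tubb3, and Brinp2 (0.97), Rnf144a (0.96) and Pus7l (0.95) for Map2. Among the members, r was −0.88 for Sox1 and Nes, 0.78 for Sox1 and Tubb3, 0.48 for Nes and Map2 and 0.12 for Tubb3 and Map2.

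Without RA, the baseline of the members differed between the SLAM-seq lines. Total reads, not T>C reads, were compared. A line cannot be told apart from its clone or, for the deeper DPY30mAID_Kdm5dKO libraries, from depth. Read length and run are not given in the labels, and the study used more than 1 read length, so these are confounded as well. Reads mapping to more than 1 place were 33.3 and 34.3% at 0 h in DPY30mAID_Kdm5dKO cells. They were 22.8 to 23.3% in DPY30mAID and 23.1 to 23.7% in RBBP5FKBP cells. Sox1 at 0 h measured 43.5, 38.1 and 38.8 CPM in DPY30mAID, 13.8 and 12.4 in DPY30mAID_Kdm5dKO and 12.9, 19.6 and 13.1 in RBBP5FKBP cells. DPY30mAID lay above both other lines, which overlapped each other. The log2 difference to DPY30mAID was −1.64 ± 0.31 for DPY30mAID_Kdm5dKO (edgeR adjusted p = 0.0006616) and −1.40 ± 0.29 for RBBP5FKBP (0.003384). In the Quant-seq libraries at 0 h, Sox1 in DPY30mAID cells was 15.7 and 22.8 CPM, so its level in this line differed between experiments.

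Tubb3 measured 67.9, 51.3 and 58.0 CPM in DPY30mAID, 26.5 and 22.7 in DPY30mAID_Kdm5dKO and 36.9, 40.7 and 55.2 in RBBP5FKBP cells at 0 h. It was lower in DPY30mAID_Kdm5dKO cells (−1.30 ± 0.25, edgeR adjusted p = 0.000773), and in RBBP5FKBP cells the groups overlapped (−0.42, 0.2343). Of Tubb3 reads in SLAM-seq, 42.7% mapped to more than 1 place. Pax6 measured 7.81, 5.70 and 7.24 CPM in DPY30mAID, 0.735 and 0.770 in DPY30mAID_Kdm5dKO and 5.54, 11.9 and 7.26 in RBBP5FKBP cells. Pax6 was lower in DPY30mAID_Kdm5dKO cells (−3.17 ± 0.79, 0.005424), a call lost without either 0 h library of that line (0.0724 without replicate 1 and 0.0702 without replicate 2). In the Quant-seq libraries at 0 h, Pax6 in DPY30mAID cells was 0.448 and 0.786 CPM from 3 reads in all, so its level in this line also differed between experiments.

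Map2 was 4.40 ± 1.99 (SD, n = 3), 4.91 ± 0.958 (SD, n = 2) and 5.43 ± 1.17 CPM (SD, n = 3) in DPY30mAID, DPY30mAID_Kdm5dKO and RBBP5FKBP cells, and Nes was 2.61 ± 1.67, 1.08 ± 0.283 and 4.35 ± 3.83 CPM. Neither was called between lines. In all, 4 of 10 member tests gave a call, each lower than in DPY30mAID, where 17.7% of all genes were called in DPY30mAID_Kdm5dKO and 6.18% in RBBP5FKBP cells. Neurog2 had no reads in any SLAM-seq library, and Dcx had 2 reads and Neurog1 3 over all lines.

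With auxin and no RA, Sox1 fell in DPY30mAID cells. From 43.5, 38.1 and 38.8 CPM at 0 h it went to 34.5, 47.4 and 49.2 at 2 h, 11.9, 16.9 and 22.8 at 8 h, and 12.8, 8.73 and 12.1 at 24 h. All libraries of 8 h and 24 h were below those of 0 h. Sox1 fell by 1.33 on the log2 scale at 8 h (SE 0.29, edgeR adjusted p = 0.0009114) and by 1.83 at 24 h (SE 0.30, 2.319e-06).

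Tubb3 in DPY30mAID cells fell only at 24 h. It measured 53.0, 45.0 and 59.6 CPM at 2 h, 68.2, 55.2 and 81.6 at 8 h, and 16.4, 17.0 and 24.2 at 24 h, a fall of 1.62 on the log2 scale at 24 h (SE 0.24, edgeR adjusted p = 2.751e-07). The value at 8 h was 0.11. Map2 rose at 24 h, from 2.44, 6.41 and 4.35 CPM to 12.8, 20.4 and 18.6 CPM (1.92 ± 0.58, 0.008108), and Pax6 was not called at any time. These 4 of 12 tests stood against 0%, 4.17% and 13.2% of all genes called at 2 h, 8 h and 24 h. The 4 calls held in each fit that left out a library.

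In DPY30mAID_Kdm5dKO cells no member was called over 20 tests by edgeR or DESeq2, where 0%, 0%, 0.00878%, 1.46% and 2.42% of all genes were called at 2, 4, 8, 24 and 48 h. At 2 h, when edgeR called no gene, 118 had an unadjusted p below 0.05 beyond the fold and DESeq2 called 0, and at 4 h these were 82 and 0. Sox1 measured 12.5 and 9.38 CPM at 24 h and 12.3 and 9.21 at 48 h, against 13.8 and 12.4 at 0 h. Tubb3 measured 17.8 and 17.3 CPM at 24 h and 20.1 and 15.6 at 48 h, all below 0 h, with log2 fold changes of −0.54 (edgeR adjusted p = 0.02764) and −0.55 (0.019) that stayed inside the required fold. Map2 at 2 h and Pax6 at 4 h were the other tests with an unadjusted p below 0.05.

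In RBBP5FKBP cells with dTAG-13, Sox1 and Tubb3 were not called. Sox1 ranged widely, at 2.32, 9.03 and 6.74 CPM at 2 h, 11.5, 25.4 and 7.52 at 8 h, and 14.2, 16.3 and 8.68 at 24 h. Its libraries of 2 h lay below those of 0 h (−1.31, unadjusted p = 0.0205, edgeR adjusted p = 0.51). Tubb3 measured 58.1, 49.1 and 56.2 CPM at 2 h, 89.9, 61.3 and 75.2 at 8 h, and 87.3, 74.5 and 50.1 at 24 h. Its log2 fold change was 0.72 at 8 h (0.0523) and 0.64 at 24 h (0.0932).

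Map2 in RBBP5FKBP cells was 5.54, 4.21 and 6.54 CPM at 0 h, 8.13, 14.9 and 13.5 at 2 h, 10.4, 22.7 and 14.6 at 8 h, and 15.9, 12.1 and 12.0 at 24 h. All later libraries were above those of 0 h. Map2 was called at 8 h (1.50 ± 0.48, edgeR adjusted p = 0.04824) and not at 2 h (1.15) or 24 h (1.26, 0.1065), and the 8 h call was lost in most alternatives, among them a fit with the replicate block. This was 1 of 15 tests of 5 members, where 0%, 4.31% and 3.48% of all genes were called at 2, 8 and 24 h. At 2 h, when edgeR called no gene in either degron line, 278 genes in RBBP5FKBP and 157 in DPY30mAID cells had an unadjusted p below 0.05 beyond the fold, and DESeq2 called 8 and 1.

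Nes was counted by few reads in RBBP5FKBP cells, at 19, 6 and 6 reads at 0 h, 0, 4 and 0 at 2 h, 0, 5 and 11 at 8 h, and 4, 0 and 2 at 24 h. The libraries of 2 h and 24 h were below those of 0 h, without a call at 2 h (log2 fold change −2.77 ± 1.28, unadjusted p = 0.03959, edgeR adjusted p = 0.5851) or 24 h (−2.18 ± 1.21, 0.2781). Pax6 overlapped its 0 h libraries at each time, with log2 fold changes from −0.03 to 0.45.

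**Figure D4:**
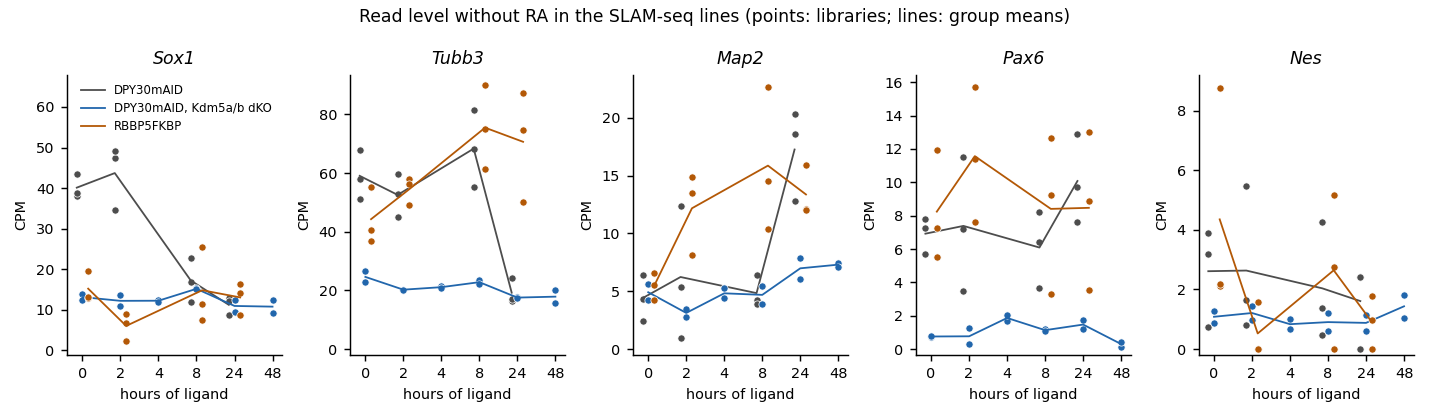
Level (CPM, vertical axis, one scale per panel) of Sox1, Tubb3, Map2, Pax6 and Nes against hours of degron ligand without RA (horizontal axis, evenly spaced, not to scale) in DPY30mAID, DPY30mAID_Kdm5dKO and RBBP5FKBP cells. Points are libraries and lines join group means. In DPY30mAID cells Sox1 goes from 38.1 to 43.5 CPM at 0 h to 8.73 to 12.8 CPM at 24 h.

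Whether the ligand effect differed between lines was tested in a fit of all SLAM-seq libraries, added after the values of the lines had been seen. The log2 difference to DPY30mAID at 24 h for Tubb3 was 2.25 ± 0.30 in RBBP5FKBP (edgeR adjusted p = 7.486e-07) and 1.07 ± 0.33 in DPY30mAID_Kdm5dKO cells (0.03345). For Sox1 it was 1.57 ± 0.51 in RBBP5FKBP cells (0.02669), and in DPY30mAID_Kdm5dKO cells it was 1.51 at 24 h (0.06359) and 1.52 at 8 h (0.1706), neither called by edgeR. DESeq2 called both of these Sox1 differences (0.0224 at 24 h and 0.0465 at 8 h), as did edgeR for 24 h with only the groups compared (0.0192). At 8 h no member was called by edgeR in either line. Of 20 tests, 3 gave a call, where 0.545% and 2.91% of all genes were called at 8 h and 4.47% and 9.2% at 24 h in DPY30mAID_Kdm5dKO and RBBP5FKBP cells. The call of Tubb3 in RBBP5FKBP cells held in each fit that left out a library, and that of Tubb3 in DPY30mAID_Kdm5dKO cells was lost in most of them. The Sox1 call was lost without DPY30mAID 24 h replicate 2 (0.0632) and without RBBP5FKBP 0 h replicate 3 (0.0536), 24 h replicate 1 (0.0535) or 24 h replicate 2 (0.0792).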

How the data were processed

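Quant-seq and SLAM-seq libraries of mES cells were deposited by the authors as raw counts of reads per 3′ UTR interval, with counts of T>C reads beside them. The file headers name SlamDunk 0.3.4 and the GRCm38 build, and the submitters' processing notes also list HISAT2 2.2.1, featureCounts, cutadapt, Trim Galore and bcl2fastq without a role. SlamDunk counts include reads that map to more than 1 place, and no molecular identifiers were used. The deposited normalised and conversion-rate columns were not used.

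Intervals were summed per gene with names from GENCODE vM21. Groups and replicate numbers came from the labels. Genes whose mean reached 10 reads in some group were tested with edgeR 4.0.16 (R 4.3.3, limma 3.58.1), by the quasi-likelihood test with TMM factors and Benjamini-Hochberg adjustment, in one fit of all Quant-seq groups, one per SLAM-seq line, one of the 0 h groups and one of all SLAM-seq groups. A prior count of 2 was used for log2 CPM only. Fitted fold changes used the edgeR default, and SE was derived from the test statistic. CPM are reads per 1000000 of the library total, and 3 reads were taken as the floor. Shares of T>C reads have exact binomial 95% intervals, and ratios of few reads have exact counting intervals. DESeq2 1.42.0, other scaling, filters, fits and left-out libraries were alternatives. The fits were checked on simulated counts in which 200 genes had been changed. Python 3.11.15 with matplotlib 3.10.9, pandas 2.3.3, numpy 2.4.6 and scipy 1.17.1 served for tables and figures.

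The members and gene lists were chosen with earlier results of these data known. Named genes are all 8 members, the 3 genes most like each tested member, and up to 3 called genes of the largest change per list on day 4, some of which are described only by list counts. The time at which auxin was added relative to RA is not given in the sources used here.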

Additional observations from a re-analysis of the deposited data

Results flagged for a closer look

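The effect of the ligand at 24 h differed between lines for 3 member comparisons, by a test of the difference in a fit of all SLAM-seq libraries. For Tubb3 the log2 difference to DPY30mAID was 2.25 in RBBP5FKBP (edgeR adjusted p = 7.486e-07) and 1.07 in DPY30mAID_Kdm5dKO cells (0.03345). For Sox1 it was 1.57 in RBBP5FKBP cells (0.02669). RBBP5FKBP differs from DPY30mAID in clone, in the degraded protein, and in the degron and its ligand (dTAG-13 on FKBP, against auxin on mAID with OsTIR1). DPY30mAID_Kdm5dKO, in which DPY30 is also the degraded protein, differs in clone, depth and the loss of Kdm5a and Kdm5b. Within each pair these cannot be told apart, nor can read length or run, which the labels do not give.

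T>C reads, which mark RNA made during the 4SU pulse, were not used in the comparisons and were above the level of unlabelled Quant-seq libraries in some members at 0 h. At 0 h in DPY30mAID cells they were 33.0% of Sox1 reads (exact binomial 95% interval 27.7 to 38.6%), 38.5% of Pax6, 18.5% of Tubb3 and 14.3% of Map2 reads, against 15.8% over all genes. The Map2 share came from replicate 3 alone (5 of 12 reads, against 0 of 23 in replicates 1 and 2), and the Pax6 reads with T>C, 11 of 16, 1 of 16 and 8 of 20, were 9 of 36 without replicate 1. In RBBP5FKBP cells they were 8.33% of Sox1, 21.2% of Pax6 and 11.2% of Tubb3 reads, against 9.52% over all genes. Of these, Sox1 had 6 of 28, 0 of 56 and 4 of 36 T>C reads, and its share was 15.6% without replicate 2, above that of all genes. In DPY30mAID_Kdm5dKO cells they were 9.95% of Sox1 reads, against 5.00% over all genes. Without 4SU the shares were 1.04% for Sox1, 1.04% for Tubb3, 0.545% for Map2 and 0 of 58 reads for Pax6. For the other members with reads, the intervals overlapped those without 4SU. Nes had 0 of 19, 0 of 16 and 0 of 31 T>C reads at 0 h in DPY30mAID, DPY30mAID_Kdm5dKO and RBBP5FKBP cells, and in DPY30mAID_Kdm5dKO cells Pax6 had 0 of 11, Map2 had 3 of 71 and Tubb3 had 1.96% (0.792 to 4.00%), from 1 of 180 reads in replicate 1 and 6 of 177 in replicate 2 (0.556% and 3.39%). Map2 in RBBP5FKBP cells had 3 of 42, all in replicate 3, and 0 of 24 without it.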

How the results depend on the processing

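Over the alternatives that left out no library, 1486 fold changes of members counted as unchanged, 12 gained a call and 25 lost one. Over left-out libraries these were 827, 8 and 52. A change of sign between uncalled values counted as unchanged where either lay within 1 SE of 0. None reversed by this rule. With a mean of at least 50 reads required, 5 of the 9 member calls of the DMSO course, 6 of the 11 of the auxin course and 3 of the 6 of the DMSO steps were left, since fewer members were tested. Auxin against DMSO gave 1 call with DESeq2 and 1 with only the groups compared, against 3. The 1 call of the RBBP5FKBP course (Map2 at 8 h) became 0 with RLE factors, no filter, a mean of at least 50 reads, the row with most reads, multiply mapped reads subtracted, only the groups compared and the replicate block, and the cause was not tested. DESeq2 gave 5 calls for the differences between lines, against 3. Leaving out a library in turn gave 3 to 4 calls between lines at 0 h, 6 to 10 in the DMSO course, 10 to 11 in the auxin course, 1 to 3 for auxin against DMSO, 0 to 0 for the difference between day 4 and 8 h, 4 to 4 in DPY30mAID, 0 to 0 in DPY30mAID_Kdm5dKO and 0 to 1 in RBBP5FKBP cells, 1 to 4 for the differences between lines, and 4 to 7 in the steps of either arm.

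Few libraries with the same replicate number deviated together (mean r 0.0011 in Quant-seq and −0.0075 to 0.048 in SLAM-seq fits). The correlation was over 0.1 in 4 of 90 Quant-seq pairs (up to 0.282) and in 8 of 30 of DPY30mAID_Kdm5dKO (up to 0.338), where Sox1 and Tubb3 were higher in replicate 1 at each of the 6 times. As not every pair was over 0.1, the numbers were not read as pairs. With the replicate block the auxin steps gave 5 member calls (Map2 from day 1 to day 2, adjusted p = 0.0507), RBBP5FKBP gave 0, and no other count of member calls changed. Of 82 counts of called genes, DESeq2 moved 37 and the stricter filter 36 by more than 1.5 times. For auxin against DMSO, DESeq2 called 225 genes higher and 197 lower on day 4 (edgeR 532 and 296) and 201 and 360 on day 6 (545 and 605), and the day 6 groups alone gave 76 and 176. The stricter filter gave 214 higher genes on day 4 and 314 on day 6. Without TMM the median of all genes moved by over 0.1 in 11 comparisons, among them DMSO day 4 (0.06 to 0.21) and auxin day 6 (0.09 to 0.43). Setting genes at 0 reads at their bound moved the day 6 list medians of auxin against DMSO from 0.53 to 0.25 for the proneural factors and from 0.13 to −0.04 for the Notch genes. Depth limits Pax6, Dcx, Neurog1 and Neurog2 in the RA course and leaves Nes at 2 to 42 reads per library.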

Other observations

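The share of T>C reads of Sox1 and Tubb3 in DPY30mAID cells with auxin and no RA, summed over 3 libraries a time, is given as values only. At 0, 2, 8 and 24 h it was 33.0%, 18.9%, 11.5% and 37.5% for Sox1 and 18.5%, 25.4%, 12.6% and 19.9% for Tubb3. Over all genes it was 15.8%, 14.7%, 9.53% and 15.3%, so the share of all genes moved between times as well. For Sox1 the counts behind these shares were 100 of 303, 57 of 302, 13 of 113 and 30 of 80 reads, with an exact binomial 95% interval of 6.27 to 18.9% at 8 h and 26.9 to 49.0% at 24 h. The Sox1 share at 8 h rests on replicate 3, with 5 of 28, 7 of 35 and 1 of 50 reads in the 3 libraries, and was 19.0% without it, close to the value at 2 h. In that library the share over all genes was 5.51%, against 13.0% and 9.82% in the other two. These intervals cover counting error only, and no test across libraries was run.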
